A study of Mus musculus with 8 samples.

Results

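Lactate and pyruvate use in mouse oocytes was examined through 10 listed genes: the plasma membrane carriers Slc16a1 and Slc16a7, the lactate dehydrogenase subunits Ldha and Ldhb, the mitochondrial pyruvate carrier subunits Mpc1 and Mpc2, and the pyruvate dehydrogenase genes Pdha1, Pdhb, Dlat and Dld. Members were the rows of the expression table whose gene symbol equalled one of these names, which gave 8 genes of 25574. Mpc1 and Mpc2 had no row under these symbols and were described beside the members from the rows of their older symbols, Brp44l and Brp44, which RefSeq lists as synonyms. The libraries came from oocytes of 8 weeks old CD1 mice, isolated 46 h after 5 IU of pregnant mare serum gonadotropin and freed of cumulus cells. They were held in the germinal vesicle stage with IBMX during isolation, and then cultured without it for 180 min. Oocytes that had undergone nuclear envelope breakdown (NEBD) were selected part way through that culture. In both groups the oocytes had been exposed to cycloheximide, an inhibitor of translation elongation, at 0.1 mg/mL for 10 min, and each lysate of 200 oocytes was spun through a sucrose gradient. The non-polysomal (NP) group held 4 libraries from the pooled light fractions and the polysomal (P) group 4 libraries from the pooled heavy fractions, in which mRNAs carrying several ribosomes sediment. The study describes the 4 profiles as independent biological replicates, without saying how the mice were divided among them.

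The fully grown mouse oocyte uses pyruvate as its main fuel and takes little from glucose, and its surrounding cumulus cells supply pyruvate to it. Monocarboxylate carriers move lactate and pyruvate across the plasma membrane, lactate dehydrogenase interconverts the pair in the cytosol, the mitochondrial pyruvate carrier brings pyruvate across the inner mitochondrial membrane, and the pyruvate dehydrogenase complex turns it into acetyl-CoA. Since transcription is silent in the maturing oocyte, its proteins are made from stored mRNAs, whose recruitment to ribosomes is governed in part by elements near the 3′ end.

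The 3′ ends of the transcripts are shown for this reason. The last 100 bases of the principal transcript in GENCODE M21 (GRCm38) were searched on the transcript strand for the cytoplasmic polyadenylation element (TTTTAT or TTTTAAT) and for the polyadenylation signal (AATAAA or ATTAAA), which can overlap each other. Dld was the only gene among the 10 with a polyadenylation element in this window, while 19.3% of 10847 tested genes had one. A polyadenylation signal was found in 8 of the 10 genes, all but Dld and Slc16a1, and in 80.3% of the 10847 genes. Windows of 30 bases around the motif, all within the 3′ untranslated region, are given below for the genes on which the results turn, with the motif in capitals.
Ldhb (chr6:142490255-142490284, minus strand): agctcctgatcaAATAAAgttagcaattgc
Ldha (chr7:46855596-46855625, plus strand): agtgtcatgccaAATAAAaccttgaacagt
Mpc1 (chr17:8297627-8297656, plus strand): taacttaatggcAATAAAtggtttaaatat
Mpc2 (chr1:165481182-165481211, plus strand): ccatttgtccatAATAAAccgtacttggtc
Pdhb (chr14:8165999-8166028, minus strand): gttttgataaggAATAAAggggattcccac
Dld (chr12:31331291-31331320, minus strand): cttagtaatgtTTTTAATcttagtaaatgg
The signal of Ldhb was followed by 18 bases up to the annotated end and that of Mpc2 by 15 bases, and the polyadenylation element of Dld was followed by 26 bases. The Dld window lies beyond the row of Dld in the expression table, which ends at position 31331564 on this strand. A match of these letters is a description of the annotated end, and the ends used in oocytes were not measured.

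The expression values are FPKM, fragments scaled by the length of the gene and by the size of the library, computed by the authors for each library and scaled within that library. A value is therefore a share of its own pool of RNA, and a difference between P and NP is a difference between such shares, not the percentage of a transcript that was bound to ribosomes. A lower share in every oocyte and a loss from some of the 200 oocytes cannot be told apart in such pools. Values of a gene were whole multiples of a library's smallest step, and from these steps the number to which each library had been scaled was recovered, 1299377 to 7594637 in NP and 2677946 to 4699328 in P. The number of genes above 0 was 11703 to 13753 in NP and 9139 to 11339 in P. All 10 oocyte markers were detected, with a summed level of 6109 to 12480 FPKM in NP and 8395 to 29950 FPKM in P. Of 14 markers of cumulus and granulosa cells, 5 were at 0 in every library, while Cyp19a1 was above 0 in every library. The summed level of the 14 was 6.25 to 128 FPKM in NP and 17.2 to 62.6 FPKM in P. The 3 blood cell markers in the table were at 0 throughout.

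The P and NP groups were compared by limma, a linear model across all genes, on log2(FPKM + 1). It covered 14292 genes whose mean exceeded 0.1 FPKM in either group, and a gene was called at a Benjamini-Hochberg adjusted p below 0.1. Of all genes tested, 0.021% were called, namely Tmem104, AC132131.1 and Morc1, all lower in P. These 3 are named because they are so few, outside the rule for named genes. None of the 8 members and neither of the carrier genes was called by limma or by limma-voom on recovered steps, and the smallest adjusted p was 0.416 in limma, for Mpc2. At an unadjusted limma p below 0.05, 1 of the 8 members, Ldhb, was higher in P, against 0.476% of all genes tested. None of the 8 members but both mitochondrial carrier genes were lower in P at that level, against 9.47% of all genes tested. No member and neither carrier gene had P and NP libraries that did not overlap, while 0.357% of all genes had every P library above every NP library and 5.92% the opposite.

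**Figure D1:**
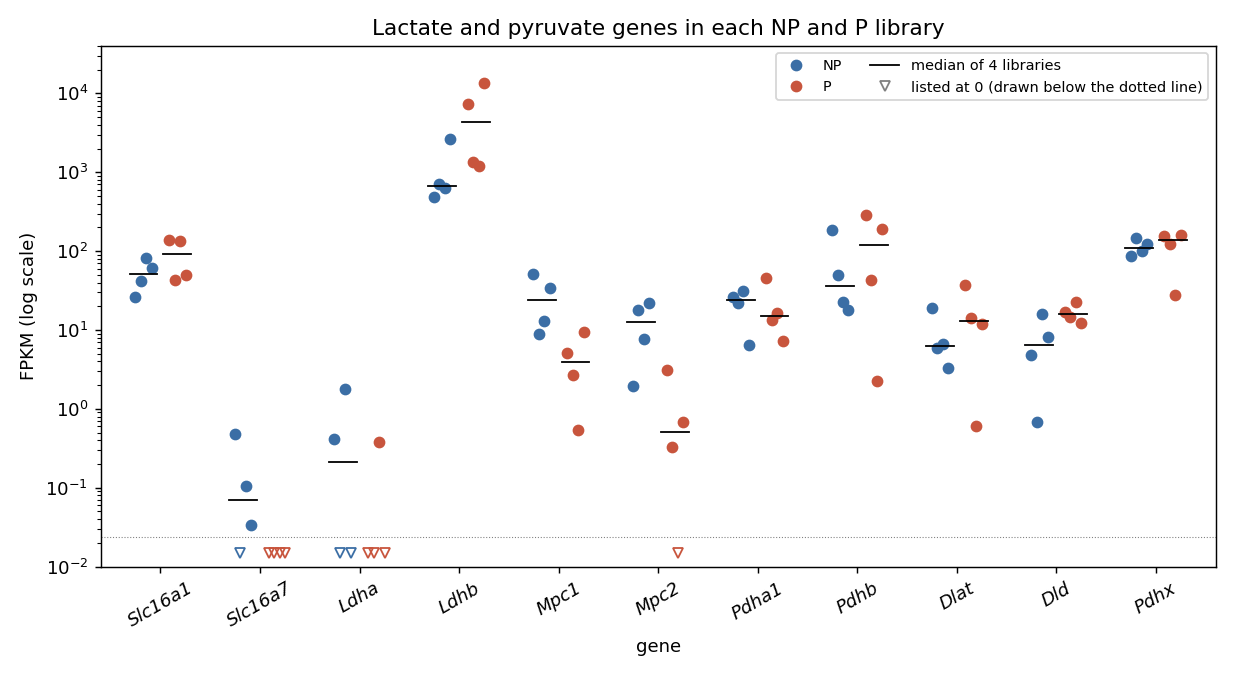
FPKM on a log scale (y axis) of each gene (x axis) in the 4 NP libraries (blue) and the 4 P libraries (red), with the median as a line and values listed at 0 drawn as open triangles under the dotted line. Ldhb stands above every other plotted gene in both groups, at 489 to 2631 FPKM in NP and 1212 to 13461 FPKM in P, and Slc16a7 is listed at 0 in all 4 P libraries.

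Scaling moved the zero of this comparison. The median log2 fold change of P over NP across all genes was −0.39 in the fit, 0.57 after centring each library on its median, −0.02 after quantile normalization and −0.86 with limma-voom on the 13364 genes tested on the recovered steps. Set against the median of all genes, the log2 fold change of Ldhb was 2.42 higher in the fit and 2.10 to 2.83 higher under these alternatives. Mpc1 and Mpc2 were below the median of all genes under each of these scalings, with differences from it of −1.69 to −2.03 for Mpc1 and −1.84 to −3.60 for Mpc2 on the log2 scale. The unadjusted calls turned with the scaling as well, since 68 genes were higher and 1354 lower in P at a limma p below 0.05 in the fit, but 2719 higher and 177 lower after median centring and 364 higher and 578 lower after quantile normalization.

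**Figure D2:**
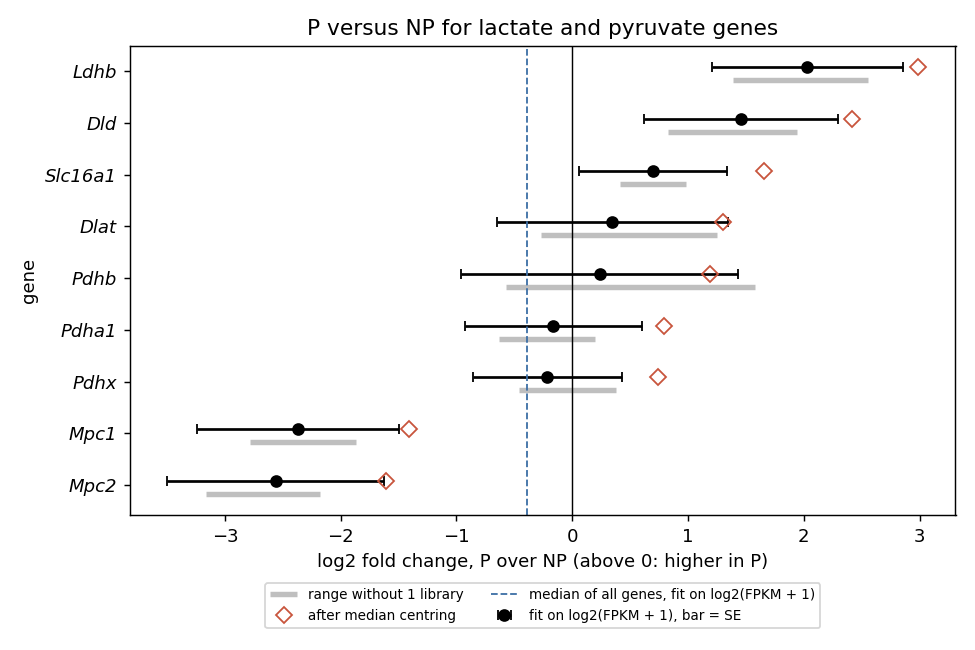
Log2 fold change of P over NP (x axis) for each gene (y axis), with the SE of the limma fit as a bar, the range over fits that left out 1 library in grey, and the value after median centring as a diamond; the dashed line is the median of all genes. Ldhb lies furthest to the right at 2.03, and Mpc1 and Mpc2 lie to the left at −2.37 and −2.56, with no gene called.

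Of the listed plasma membrane carriers, Slc16a1 was well above 0 in every library and Slc16a7 was near the limit of detection. Slc16a1 encodes MCT1, a proton-coupled carrier of lactate and pyruvate, and lies at chr3:104638668-104658462. It measured 26.3, 42.4, 80.9 and 61.5 FPKM in NP replicates 1 to 4 and 137, 43.0, 136 and 49.4 FPKM in P replicates 1 to 4. P replicates 1 and 3 were higher than every NP library, whereas P replicates 2 and 4 lay among them. The mean was 52.8 ± 23.6 FPKM in NP and 91.2 ± 52.0 FPKM in P (SD, n = 4 each), and the log2 fold change was 0.70 ± 0.64 (SE) with an adjusted p of 0.681 in limma. The groups did not overlap once each library had been scaled to one median FPKM, at 19.9 to 56.7 in NP and 76.2 to 272 in P. The share of all genes that separate under that scaling was not computed. Median centring moved genes higher in P at a limma p below 0.05 from 68 to 2719. The separation is therefore not read as particular to Slc16a1.

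Slc16a7, which encodes the high-affinity pyruvate carrier MCT2, measured 0.483, 0, 0.106 and 0.0339 FPKM in NP and was listed at 0 in every P library. These NP values correspond to 6, 0, 3 and 1 steps. A count of 0 allows up to 3 steps, or 0.164 to 0.288 FPKM across the P libraries, so both groups were near this limit and no fold is given. The table lists genes used by every cell at or near 0 as well, such as Gapdh, a glycolytic enzyme named here after its values had been seen, at 0.117 to 3.42 FPKM in NP and at 0 in 3 of the 4 P libraries. A listing at 0 is therefore not read as absence of the transcript. Some other carrier genes, named after their values had been seen, were also detected. Slc16a13 was at 5.41 to 44.4 FPKM in NP and 0.622 to 79.6 FPKM in P. Slc5a12 was at 3.01 to 7.17 FPKM in NP and 0.942 to 57.0 FPKM in P, with 57.0 FPKM in P replicate 4. Slc16a8 was listed at 0 in every library, and Slc16a3 in 3 of 4 libraries of each group. The highest values of Slc16a11 and Slc5a8 were 2.11 and 7.93 FPKM.

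Of the lactate dehydrogenase subunits, Ldhb, the heart-type subunit, was at the highest level among the listed genes in both groups, and Ldha, the muscle-type subunit, was near 0. Ldhb lies at chr6:142490249-142507957. It measured 489, 717, 630 and 2631 FPKM in NP replicates 1 to 4 and 7359, 1348, 1212 and 13461 FPKM in P replicates 1 to 4. P replicates 1 and 4 were above every NP library, and NP replicate 4 was above P replicates 2 and 3, so the groups overlapped through that library alone. Within each library Ldhb ranked above 98.7% to 99.9% of the genes tested in NP and 99.8% to 100.0% in P. Its ranges did not overlap those of the next gene, Pdhx, in either group.

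The mean of Ldhb was 1117 ± 1014 FPKM in NP and 5845 ± 5830 FPKM in P (SD, n = 4 each), a ratio of means of 5.23. The log2 fold change was 2.03 ± 0.83 (SE), with a p of 0.0278 and an adjusted p of 0.455 in limma. Leaving out 1 library at a time moved the ratio of means from 2.96 without P replicate 4 to 9.55 without NP replicate 4. After median centring the log2 fold change was 2.99 with an adjusted p of 0.108 in limma. The 2 P libraries high in Ldhb were also those with the highest summed level of oocyte markers. This sum was 23020 and 29950 FPKM in P replicates 1 and 4 against 9120 and 8395 FPKM in P replicates 2 and 3. Dazl went the other way, at 82.5 and 58.3 FPKM against 229 and 435 FPKM. Bmp15 and Oosp1 did not separate these libraries, and the other oocyte markers were higher in P replicates 1 and 4. The part of the difference in the summed level in the result was not tested.

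Ldha lies at chr7:46841475-46855627 and measured 0.420, 0, 1.80 and 0 FPKM in NP and 0, 0, 0.377 and 0 FPKM in P. These values correspond to 4, 0, 39 and 0 steps in NP and to 0, 0, 5 and 0 steps in P, and a count of 0 allows up to 0.132 to 0.774 FPKM across the NP libraries and up to 0.214 to 0.376 FPKM across the P libraries. NP replicates 1 and 3 and P replicate 3 were the libraries with more than 3 steps. The summed level of the cumulus and granulosa cell markers was 36.3 FPKM in NP replicate 3 and was highest, at 128 FPKM, in NP replicate 4, where Ldha was listed at 0. Most of that highest sum came from Cyp19a1 and Cyp11a1, at 75.2 and 46.4 FPKM. Whether cells other than the oocyte contributed to the Ldha steps was not tested. Elsewhere in the genome, 3 stretches were at least 95% identical to parts of the Ldha transcript and together covered 19.2% of it.

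Ldhb made up 98.1% to 99.4% of the summed FPKM of Ldha, Ldhb and Ldhc in NP and 99.5% to 100.0% in P. Ldhc, the testis-type subunit, is named after its values had been seen. The log2 ratio of Ldhb to Ldha, with 1 added to each FPKM, was 8.43, 9.49, 7.82 and 11.4 in NP replicates 1 to 4 and 12.8, 10.4, 9.78 and 13.7 in P replicates 1 to 4. Its mean was 9.28 ± 1.55 in NP and 11.7 ± 1.89 in P (SD, n = 4 each), and the difference of 2.41 gave an exact permutation p of 0.114 (two-sided, 70 assignments) and 0.457 after adjustment over the 4 ratios tested. With 4 libraries in each group the smallest p these assignments can give is 0.0286. As Ldha was near 0 throughout, this ratio follows Ldhb.

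Among 2428 other genes with a mean FPKM above 50 in a group, those whose levels over the 8 libraries were most like Ldhb were Nudcd3, 2410004A20Rik and Slbp, with Pearson's r of 0.953, 0.952 and 0.950 on log2(FPKM + 1) and Spearman's rho of 0.952, 0.857 and 0.952. Without P replicates 1 and 4, the libraries furthest from the median of Ldhb, r over the remaining 6 libraries was 0.722, 0.739 and 0.940. The 8 libraries share their scaling and the likeness is a description. Slbp, which encodes the stem-loop binding protein of histone mRNAs, measured 65.8 to 100 FPKM in NP and 76.8 to 234 FPKM in P.

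A near-identical copy of Ldhb lies at chr19:21937283-21938567, 97.6% identical over 98.5% of the Ldhb transcript, and the table lists the row Gm5514 within it, chosen after the values had been seen. Gm5514 measured 63.8 to 186 FPKM in NP, 2437 and 2507 FPKM in P replicates 1 and 4, and 176 and 86.7 FPKM in P replicates 2 and 3. It was thus high in the same 2 P libraries as Ldhb. The Gm5514 row covers 306 bases, whereas the copy aligns over 1285 bases. Its steps made up 0.718% to 6.91% of the steps of both rows in NP and 1.38% to 6.06% in P. With the steps of both rows added, the log2 fold change of Ldhb was again 2.03, with an adjusted p of 0.455 in limma. As the row adds few steps and does not cover the whole copy, this sum could hardly move the value. The part of the copy in the level of Ldhb was not tested.

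**Figure D3:**
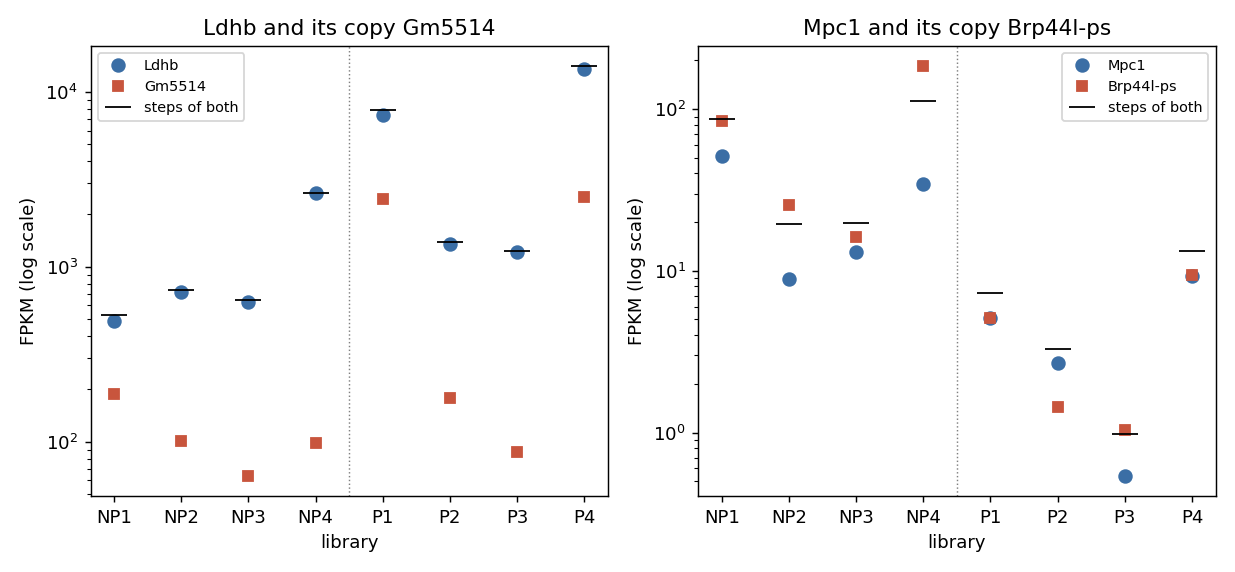
FPKM on a log scale (y axis) in each library (x axis) of Ldhb and Gm5514 (left) and of Mpc1 and Brp44l-ps (right), with a dash for the level when the steps of both rows are added. Gm5514 lies under Ldhb in every library, whereas Brp44l-ps lies above Mpc1 in each NP library and is at 1.03 to 9.41 FPKM in P.

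Both subunits of the mitochondrial pyruvate carrier were at lower levels in P than in NP on average, and neither passed the adjusted threshold. Mpc1 and Mpc2 form a heterodimer in the inner mitochondrial membrane, and both are needed for transport. Mpc1 lies at chr17:8282904-8297661 and measured 51.3, 8.87, 13.0 and 34.5 FPKM in NP replicates 1 to 4 and 5.11, 2.70, 0.540 and 9.33 FPKM in P replicates 1 to 4. The groups overlapped only because P replicate 4 was just above NP replicate 2. The mean was 26.9 ± 19.8 FPKM in NP and 4.42 ± 3.77 FPKM in P (SD, n = 4 each), and the log2 fold change was −2.37 ± 0.88 (SE) with a p of 0.0171 and an adjusted p of 0.420 in limma.

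Mpc2 lies at chr1:165461037-165481214 and measured 1.98, 17.8, 7.76 and 22.0 FPKM in NP replicates 1 to 4. In P replicates 1 to 4 it measured 3.13, 0.328, 0 and 0.687 FPKM, which correspond to 56, 4, 0 and 7 steps. Here NP replicate 1 was below P replicate 1, and every other NP library was above every P library. The log2 fold change was −2.56 ± 0.94 (SE) with a p of 0.0160 and an adjusted p of 0.416 in limma. Pseudocounts of 0.1 and 10 moved it to −3.96 and −0.93, since the P values lie near 0.

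The library that decided the overlap differed between the subunits. Without NP replicate 2 or without P replicate 4 the groups of Mpc1 did not overlap, and without NP replicate 1 or without P replicate 1 those of Mpc2 did not. The share of all genes that separate when 1 library is left out was not computed. With all libraries kept, 5.92% of all genes tested had every P library below every NP library. In every fit that left out 1 library the log2 fold change stayed below 0, between −2.79 and −1.87 for Mpc1 and between −3.16 and −2.18 for Mpc2. The log2 ratio of Mpc2 to Mpc1 within a library was −1.13 ± 2.14 in NP and −1.32 ± 0.96 in P (SD, n = 4 each), and their difference of −0.19 had an exact permutation p of 0.971. NP replicate 1 had the lowest ratio, −4.13, with Mpc1 at its highest and Mpc2 at its lowest NP level.

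For Mpc1 the assignment of reads is uncertain. A copy at chr12:110858070-110858954 is 99.8% identical over 92.4% of the transcript, and the table lists it as Brp44l-ps, a row chosen after the values had been seen. Brp44l-ps measured 84.3, 25.6, 16.2 and 184 FPKM in NP and 5.12, 1.43, 1.03 and 9.41 FPKM in P. The groups of this row did not overlap, with P below NP, against 5.92% of all genes tested. Its steps made up 34.3% to 69.1% of the steps of both rows in NP and 18.2% to 44.4% in P. How reads matching both places were assigned is not given in the labels or methods. With the steps of both rows added, Mpc1 was at 19.6 to 111 FPKM in NP and 0.972 to 13.3 FPKM in P, the groups did not overlap, and the log2 fold change was −3.01 ± 0.86 (SE) with an adjusted p of 0.395 in limma. No such copy was found for Mpc2.

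Among the genes of the pyruvate dehydrogenase complex, the side on which Pdha1 and Pdhx lay depended on the scaling. Pdhb, Dlat and Dld had a log2 fold change above 0 under each scaling. Of the 4 members and Pdhx, 3 had a log2 fold change above 0 and 2 below 0 in the fit, from −0.22 to 1.46, and none was called. Set against the median of all genes in that fit, all 5 were higher, by 0.17 for Pdhx to 1.85 for Dld on the log2 scale. After median centring all 5 were above 0, from 0.74 to 2.42. The median of all genes was then itself 0.57, and the differences from it were the same as in the fit. After quantile normalization Pdhx differed from the median of all genes by −0.046, while the others remained above it. Pdha1 encodes the alpha subunit of the pyruvate dehydrogenase E1 enzyme and Pdhb its beta subunit, Dlat the E2 acetyltransferase, Dld the E3 dehydrogenase that other complexes share, and Pdhx the protein that binds E3 to the core.

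Dld showed the least spread in P. It measured 4.75, 0.687, 16.1 and 8.23 FPKM in NP replicates 1 to 4 and 17.1, 14.6, 22.5 and 12.2 FPKM in P replicates 1 to 4. NP replicate 3 alone reached the range of the P libraries. The mean was 7.43 ± 6.53 FPKM in NP and 16.6 ± 4.42 FPKM in P (SD, n = 4 each), and the log2 fold change was 1.46 ± 0.84 (SE) with a p of 0.103 and an adjusted p of 0.557 in limma. The NP value of 0.687 FPKM rests on 2 steps, and without that library the log2 fold change was 0.83. The groups did not overlap after scaling to one median FPKM or after quantile normalization. The share of all genes that did so was not computed, so this is not read as particular to Dld.

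Pdhb measured 184, 49.2, 22.9 and 17.8 FPKM in NP replicates 1 to 4 and 284, 43.5, 2.27 and 192 FPKM in P replicates 1 to 4. The P libraries enclosed the NP range on both sides. Its mean was 68.5 ± 78.2 FPKM in NP and 130 ± 131 FPKM in P (SD, n = 4 each), and the log2 fold change of 0.24 ± 1.20 (SE) had an adjusted p of 0.938 in limma. The value without P replicate 3 was 1.58 and without P replicate 1 it was −0.57, so the direction rested on single libraries. A copy at chr1:4771101-4772543 is 97.0% identical over 95.8% of the Pdhb transcript, and it was not analysed here.

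Dlat, like Pdhb and Pdhx, was lowest in P replicate 3. Among the P libraries, Ldhb, Mpc1 and Mpc2 were also lowest in that one, whereas Slc16a1, Dld and Pdha1 were not. The share of all genes lowest in that library was not computed. Dlat measured 18.8, 5.99, 6.69 and 3.31 FPKM in NP replicates 1 to 4 and 36.8, 14.2, 0.599 and 12.1 FPKM in P replicates 1 to 4. Its log2 fold change was 0.35 ± 0.99 (SE) with an adjusted p of 0.889 in limma, 1.25 without P replicate 3 and −0.27 without P replicate 1. Pdhx measured 87.3, 148, 99.2 and 123 FPKM in NP and 155, 123, 27.5 and 161 FPKM in P, and its log2 fold change was −0.22 ± 0.64 (SE) with an adjusted p of 0.892 in limma.

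Pdha1 measured 26.2, 22.2, 31.1 and 6.45 FPKM in NP replicates 1 to 4 and 45.1, 13.4, 16.3 and 7.32 FPKM in P replicates 1 to 4. The groups lay over each other, with means of 21.5 ± 10.7 and 20.5 ± 16.8 FPKM (SD, n = 4 each) and a log2 fold change of −0.17 ± 0.77 (SE; adjusted p 0.930 in limma). After median centring its log2 fold change turned to 0.79, and that of Pdhx to 0.74. P replicate 3 was the lowest P library for Pdhb, Dlat and Pdhx and the highest for Dld, while Pdha1 was lowest in replicate 4 of both groups.

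**Figure D4:**
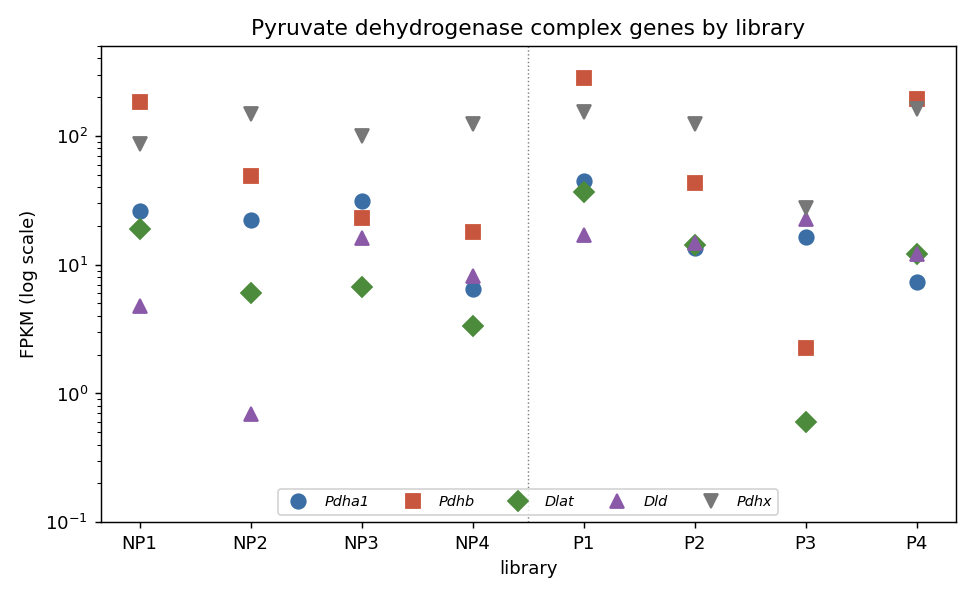
FPKM on a log scale (y axis) of the pyruvate dehydrogenase complex genes in each NP and P library (x axis), 1 point per gene and library. In P replicate 3, Pdhb, Dlat and Pdhx are at 2.27, 0.599 and 27.5 FPKM, their lowest P values, and Dld is at 22.5 FPKM, its highest.

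In the E1 enzyme alpha and beta chains are present in equal numbers, and the levels of their transcripts were compared within each library. The log2 ratio of Pdha1 to Pdhb was −2.76, −1.11, 0.43 and −1.34 in NP replicates 1 to 4 and −2.63, −1.63, 2.41 and −4.54 in P replicates 1 to 4. Pdhb was thus above Pdha1 in 3 of 4 libraries of each group, the exceptions being NP replicate 3 and P replicate 3. The mean ratio was −1.20 ± 1.31 in NP and −1.60 ± 2.93 in P (SD, n = 4 each), with an exact permutation p of 0.83 for the difference. The log2 ratio of Slc16a7 to Slc16a1 was −5.44 ± 0.89 in NP and −6.33 ± 0.89 in P (SD, n = 4 each), with an exact permutation p of 0.229 and 0.457 after adjustment over the 4 ratios. With Slc16a7 listed at 0 in P, this ratio follows Slc16a1 and the 1 added to each FPKM.

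**Figure D5:**
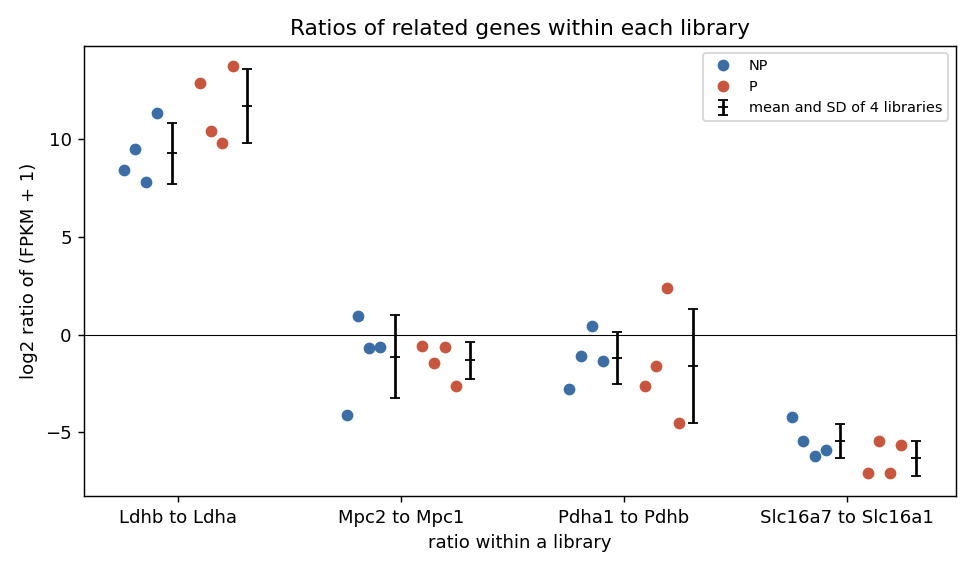
Log2 ratio of FPKM + 1 of related genes within each library (y axis) for 4 pairs of genes (x axis), NP in blue and P in red, with the mean and SD of 4 libraries in black. The Ldhb to Ldha ratio is 7.82 to 11.4 in NP and 9.78 to 13.7 in P, and the groups overlap in all 4 ratios.

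By the median of the 4 libraries, the order of levels in NP was Ldhb, Pdhx, Slc16a1, Pdhb, Pdha1, Mpc1, Mpc2, Dld, Dlat, Ldha and Slc16a7, with medians from 674 FPKM for Ldhb to 0.0699 FPKM for Slc16a7. Neighbours in this order had ranges that did not overlap only between Ldhb and Pdhx, between Pdhx and Slc16a1, and between Dlat and Ldha. In P the order was Ldhb, Pdhx, Pdhb, Slc16a1, Dld, Pdha1, Dlat, Mpc1, Mpc2, Ldha and Slc16a7, from 4353 FPKM for Ldhb to 0. There the neighbours set apart were Ldhb from Pdhx and Slc16a1 from Dld. Mpc1 and Mpc2 stood below Dlat in all 4 P libraries, although the ranges of Mpc1 and of Mpc2 each overlapped that of Dlat.

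A wider list of 32 genes of lactate and pyruvate metabolism had 30 rows in the table, of which 24 were tested and none was called by limma or by limma-voom on recovered steps. At an unadjusted limma p below 0.05, 3 were lower in P and none higher, against 9.47% and 0.476% of all genes tested. The list's log2 fold change was above 0 for 6 genes and below 0 for 18, with a median of −0.90, or −0.85 without the 1 gene listed at 0 in a whole group, beside −0.39 and −0.41 for all genes tested. The libraries of 2 genes did not overlap, with P below NP, against 5.92% of all genes tested. Lipt1, which acts in attaching lipoate to enzymes such as Dlat, measured 434, 350, 181 and 158 FPKM in NP replicates 1 to 4 and 146, 114, 79.4 and 9.77 FPKM in P replicates 1 to 4, with a log2 fold change of −2.06 ± 0.78 (SE) and an adjusted p of 0.428 in limma. Pdha2, the autosomal E1 alpha gene known from testis, measured 2.26, 1.31, 3.15 and 1.18 FPKM in NP, 0.271 FPKM in P replicate 1 and 0 in the other P libraries, with an adjusted p of 0.405 in limma. The third gene at this level, Ldhd, a mitochondrial D-lactate dehydrogenase, had overlapping groups at 13.9 to 37.1 FPKM in NP and 2.87 to 18.0 FPKM in P, and is named after its values had been seen.

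The other abundant genes of the wider list, with a mean above 50 FPKM in a group, overlapped between the groups. Pkm, the pyruvate kinase that forms pyruvate, measured 141 to 498 FPKM in NP and 71.9 to 321 FPKM in P. Me1, the cytosolic malic enzyme, measured 71.6 to 276 FPKM in NP and 99.2 to 252 FPKM in P, and the mitochondrial Me2 12.7 to 91.9 and 0.456 to 88.9 FPKM. Bsg, which encodes basigin, the chaperone that carries MCT1 to the membrane, measured 30.4 to 206 FPKM in NP and 14.4 to 453 FPKM in P. Pdpr, a regulatory subunit of pyruvate dehydrogenase phosphatase, measured 38.3 to 124 FPKM in NP and 12.9 to 171 FPKM in P, and its highest P value was in replicate 3, where Pdhb and Dlat were lowest.

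The pathways on either side gave 0 called genes as well, with limma and with limma-voom on recovered steps. Of 15 core glycolytic enzymes, 13 were tested, with a median log2 fold change of −0.75, 2 were lower and none higher in P at an unadjusted limma p below 0.05, and 2 had P libraries that lay wholly below the NP libraries. These were Aldoa, an aldolase, at 365 to 1113 FPKM in NP and 107 to 338 FPKM in P, and Tpi1, triosephosphate isomerase, at 206 to 358 and 43.8 to 89.0 FPKM, both with an adjusted p of 0.376 in limma. Of 16 citric acid cycle enzymes, all were tested, the median log2 fold change was −0.92 and 14 were below 0. Of these enzymes, 1 was lower in P at an unadjusted limma p below 0.05, and none had groups that did not overlap. Over all genes tested, 9.47% were lower in P at that p, and 5.92% had P libraries wholly below the NP libraries. The counts of both pathways were not tested against these shares. The log2 fold change was above 0 for 5 of the 8 members, 5 of 10 with the carrier genes, 2 of the 13 glycolytic and 2 of the 16 citric acid cycle enzymes, and 4083 of all 14292 genes. The members' values were not tested against these lists.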

How the data were processed

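Lactate and pyruvate genes were examined in RNA-seq libraries of 4 NP and 4 P pools from mouse NEBD-stage oocytes, grouped by library title. Ribosomal RNA had been removed, and the RNA reverse transcribed with random and oligo(dT) primers, amplified and prepared with a Nextera kit. The submitters' processing notes name Trim Galore 0.4.1, FastQC 0.11.5, HISAT2 2.0.5 and DESeq2 with the GRCm38 build, and the methods name Seqmonk for quantification. The deposited values are FPKM per gene and library, computed by the authors and not log-transformed. How the authors assigned reads with several matches was not stated in the labels or methods. The DESeq2 columns of log2 fold changes, p-values and FDR, and the ratios of means in a table of expressed genes, are comparisons by the authors and were not used.

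FPKM are not counts, so limma 3.58.1 (R 4.3.3; lmFit, eBayes with a trend, two-sided) was fitted on log2(FPKM + 1), without a replicate block, for the genes whose mean exceeded 0.1 FPKM in either group. Fold changes on this scale understate those of low genes. Steps were recovered as whole numbers for 14084 of 15585 genes above 0 (90.4%), and whole steps gave 97.7% of values above 0. A value counted as whole within 0.01 of a step or a relative error of 2e-06, with an annotated length for 6979 genes and a length searched between 100 and 30000 bases for 7105. The sources do not say if steps are reads or fragments, and limits from steps cover counting error only, as amplified reads are not independent molecules. Single values were compared by exact permutation tests. Python 3.11.15, pandas 2.3.3, numpy 2.4.6, scipy 1.17.1, matplotlib 3.10.9 and blastn 2.17.0 were used, the latter for copies of at least 95% identity over 150 bases.

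All 10 listed genes were named, with genes of the wider list that were called, did not overlap or exceeded a mean of 50 FPKM, genes of neighbouring pathways that did not overlap, and the 3 genes most correlated with Ldhb. The members and lists were chosen with earlier results of these data known. The alternatives were other pseudocounts, filters, scalings, a replicate block, limma-voom on recovered steps and leaving out each library.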

Additional observations from a re-analysis of the deposited data

Results flagged for a closer look

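In 2 of 21 groups of 4 libraries with any spread, 1 library stood far from the other three by Dixon's criterion. Chance gives this in about 1 of 20 groups. Ldhb in NP replicate 4 was at 2631 FPKM, above the other NP libraries by 0.894 of the group's range. Ldha in P replicate 3 was at 0.377 FPKM, from 5 steps, while the other P libraries were listed at 0. With the other three at 0 any value would have met this criterion, and this one lies near the limit that a count of 0 allows, so the chance rate does not apply to it.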

How the results depend on the processing

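No member and neither mitochondrial carrier gene was called by limma under any alternative run, and none of the wider list was called. Over all genes 3 were called in the fit, 5 with a pseudocount of 0.1 or a mean FPKM above 1, 0 with a pseudocount of 10, no filter, median centring or quantile normalization, 129 with limma-voom on recovered steps, and 0 to 5 when 1 library was left out. A replicate block gave 1 called gene, and the block ended or added no call of a member. Same-numbered NP and P libraries deviated together at correlations of 0.139, 0.0518, 0.251 and 0.155 over 11374 genes, and 7 of 8 libraries correlated best with their own number. This is a hint from the data, not the design. Both pools were cut from the same profiles, but no source says that a number marks one profile in both groups, and no pairing was assumed. If libraries are set side by side by number as a description only, Ldhb and Dld were higher and Mpc1 lower in P in 4 of 4. Their adjusted p was 0.269, 0.472 and 0.325 in limma with the block. The share of all genes with the same direction in 4 of 4 was not computed, and 10209 of 14292 genes were below 0 in the fit.

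Of 146 log2 fold changes of 9 genes under alternatives, 12 turned sign and none was called. The other filters and the replicate block leave a gene's fold change as it was in the fit. Their values are among the 146 and could not turn sign. Ldhb, Dld, Slc16a1, Mpc1 and Mpc2 kept their direction under all alternatives run. Pdha1 turned from −0.17 to 0.79 under median centring, 0.32 under quantile normalization and 0.089 under voom, and leaving out 1 library gave −0.63 to 0.20. Pdhx turned to 0.74 under median centring, and leaving out 1 library gave −0.46 to 0.37. Leaving out 1 library gave −0.57 to 1.58 for Pdhb and −0.27 to 1.25 for Dlat.

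Members whose groups did not overlap numbered 0 in the table as deposited and 0 to 1 without 1 library. They numbered 3 with each library scaled to one median FPKM (Pdha1, Dld and Slc16a1) and 1 after quantile normalization (Dld). For the carrier genes the number was 0 to 1 without 1 library. The share of all genes whose groups separate under these alternatives was not computed. Median centring moved genes higher in P at a limma p below 0.05 from 68 to 2719, so these counts are not read as particular to the members. The Mpc2 to Mpc1 ratio difference turned to 0.30 with a pseudocount of 10 and was −1.20 to 0.49 without 1 library, and the Pdha1 to Pdhb difference was −1.74 to 0.58. No ratio difference reached an exact permutation p below 0.05 under any alternative run. With 1 library left out the smallest exact p is 0.0571 and with the block 0.125, so these tests could not pass. The causes were not tested.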
